A study of Equus caballus with 4 samples.

Results

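Genes of autophagy and of the lysosome were examined in equine satellite cells (ESC) treated with HMB. The set was given as 44 gene symbols, and a gene was taken up if a non-control probe of the horse array carried exactly its symbol. A probe was present for 39 of the 44 symbols, out of 24998 different gene names on the array. Of these 39 genes, 33 had a probe bright enough to be tested, among 13975 gene names tested in all. They comprised 95 probes, of which 80 were tested. The symbols without a probe were *GABARAP*, *ATG10*, *BNIP3*, *CTSL* and its older form *CTSL1*.

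Autophagy is the process by which a cell encloses part of its own content in a membrane, the autophagosome, and delivers it to the lysosome for digestion. A kinase complex and a lipid kinase complex start the membrane, conjugation enzymes attach proteins of the ATG8 family to it, and cargo receptors tie damaged proteins or mitochondria to the attached ATG8 proteins. The lysosome then degrades the content with cathepsins and other hydrolases. In skeletal muscle, this route removes damaged organelles and contributes to protein turnover alongside the proteasome.

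ESC are the stem cells of horse muscle, here isolated from *m. semitendinosus* and cultured until day 3 of differentiation. HMB is a metabolite of leucine and was given at 50 µM for 24 h, with 3 mM H2O2 added during the last 1 h to damage the cells. The control received the same H2O2 without HMB, hence each ratio compares HMB with no HMB in cells that were all exposed to H2O2. On each of 4 two-colour arrays, RNA of HMB-treated cells carried Cy5 and RNA of control cells carried Cy3. No array had the dyes exchanged, so treatment and dye cannot be told apart. The control is labelled as its first replicate on all arrays, and the methods kept the culture with the best viability and fusion, so n = 4 need not stand for 4 horses or for 4 controls. If the arrays share a culture or a control RNA, the p-values measure a spread that is partly technical. The arrays shared 1 slide, which leaves no slide effect to test.

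The values are log2 ratios of HMB-treated over control, calculated from the log10 ratios in the scanner output and averaged over the tested probes of a gene, so a positive value means higher expression with HMB. Each array held 45220 spots. The share of non-control spots well above background ran from 55.2% to 61.8% over the arrays and channels, and 0 spots were saturated. Across probes, which are not independent replicates, r between arrays ran from 0.837 to 0.920. A gene was called where limma gave an adjusted p (Benjamini-Hochberg, over all genes tested) of at most 0.05 and the fold change (FC) reached 1.3, which is 0.38 on the log2 scale. Of 7 tested muscle markers, 5 were called lower with HMB, beside 16.4% of all genes. The log2 ratios of the 7 lay between −1.63 and 0.10. The summed signal of the list was between 165941 and 186693 in the control and between 63109 and 100238 with HMB. Of 5 tested fibroblast markers, 4 were called higher, beside 12.5% of all genes. Their list had ratios between 0.32 and 1.82 and summed signals between 58543 and 65534 in the control and between 73832 and 110065 with HMB. Of the leukocyte list, *CD14* was detected and had a ratio of 0.20 (adjusted p = 0.0986 in limma), while *AIF1*, *CSF1R* and *ITGAM* were not above background, nor was any of the 4 endothelial or 3 adipocyte markers on the array. In such bulk RNA, fewer cells of a type and less RNA per cell cannot be told apart, and the part of the cell makeup in the ratios given here was not tested.

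Of the 33 genes tested, 5 (15.2%) were called, beside 28.9% of all genes tested. *CTSH*, *OPTN* and *GABARAPL1* were higher with HMB, beside 12.5% of all genes called higher, and *GABARAPL2* and *WIPI2* were lower, beside 16.4% called lower. The gap to all genes depended on the processing, since 15.2% of the set stood beside 17.1% of all genes without background correction, and 15.4% beside 17% with no filter on dim probes. The median absolute log2 ratio was 0.17 for the 33 genes and 0.23 for all genes. The median SD over the arrays was 0.12 for the set and 0.16 for all genes. An adjusted p of 0.05 or less was reached by 14 of the 33 genes (42.4%, beside 46.3% of all genes), and 9 of these 14 stayed below the FC threshold. Of the 80 tested probes, 18 were called, beside 28.6% of all probes tested. The 95% confidence interval lay wholly inside the FC threshold for 16 genes. The sign was the same on all 4 arrays for 23 genes (69.7%, beside 61.0% of all genes), 12 above 0 and 11 below 0.

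**Figure D1:**
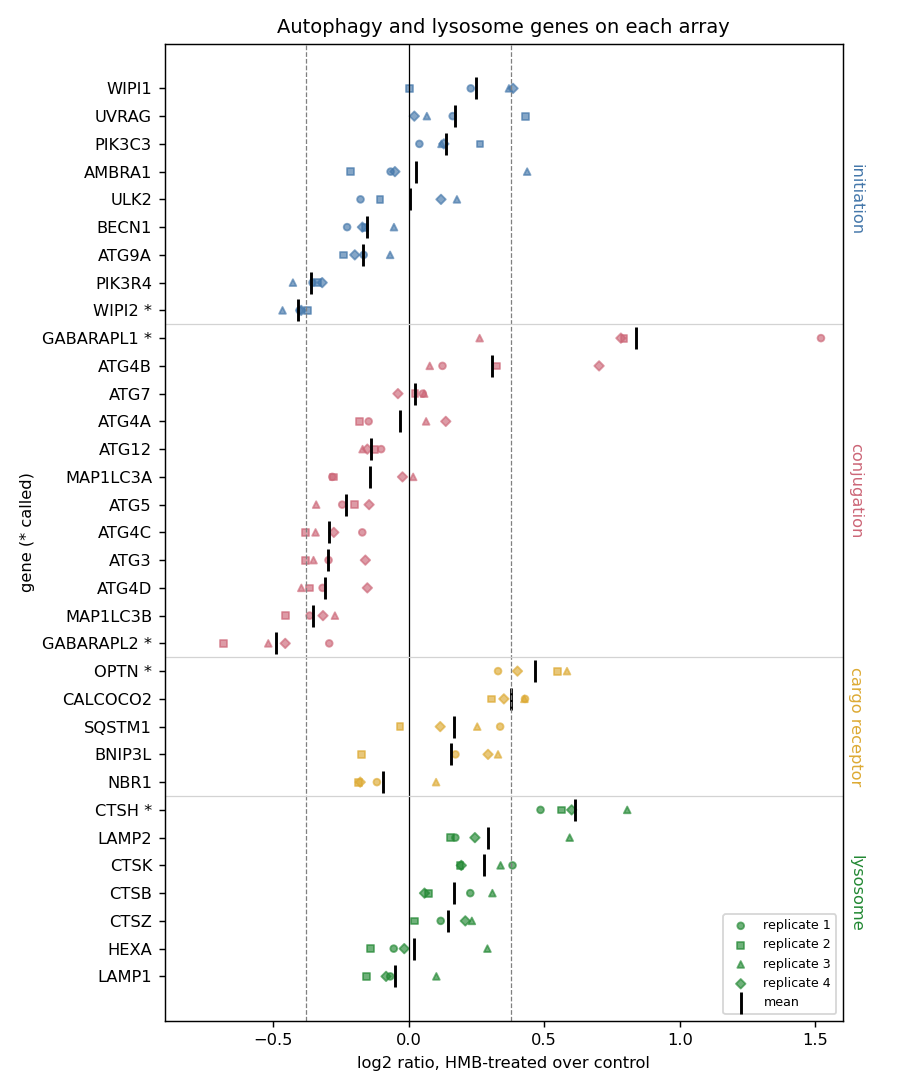
Log2 ratio of HMB-treated over control (horizontal axis) for the 33 tested genes, ordered by role, with a symbol for each of the 4 arrays, a black bar for the mean, and dashed lines at an FC of 1.3. The 5 called genes carry an asterisk, and most other means lie between the dashed lines.

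The medians of the role groups differed in sign. The 12 conjugation genes had a median log2 ratio of −0.19, and 9 of them were below 0. On the 4 arrays the median of the group was −0.21, −0.24, −0.22 and −0.15, below that of all genes on every array. The 7 lysosome genes had a median of 0.17, with 6 of them above 0. Their array medians were 0.17, 0.074, 0.31 and 0.19. The lean above 0 was that of these 7 genes, since the lysosome classes of the wider list below had medians under 0. The 5 cargo receptor genes had a median of 0.17 as well, but with array medians of 0.33, −0.032, 0.33 and 0.29, so replicate 2 did not share the direction. The 9 initiation genes had a median near 0, at 0.0033, and their array medians ran from −0.17 to 0.067. The median of all genes was −0.060, between −0.071 and −0.051 on the arrays, and 57.3% of all genes were below 0.

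The lysosome median exceeded the conjugation median by 0.35, and by 0.38, 0.31, 0.53 and 0.34 on the arrays. Each of these differences was taken within an array, where a shift common to all spots cancels. Settings that altered only the test, read the same ratios or shifted each array by a constant could not change the difference. Over all settings it was between 0.27 and 0.42, lowest at 0.27 with normexp, and 0.31 without background correction. The groups also differed in the brightness of their spots, which says nothing of their relative expression. The median log2 brightness was 11.8 for the lysosome genes, 8.96 for the conjugation genes and 8.35 for all genes, and its part in the difference was not tested. Against 0, the directions depended on the scaling, since all 4 medians lay between −0.77 and −0.36 after scaling to the spike-in probes, with the median of all genes at −0.68. No test was made between the groups, since the genes are not replicates.

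**Figure D2:**
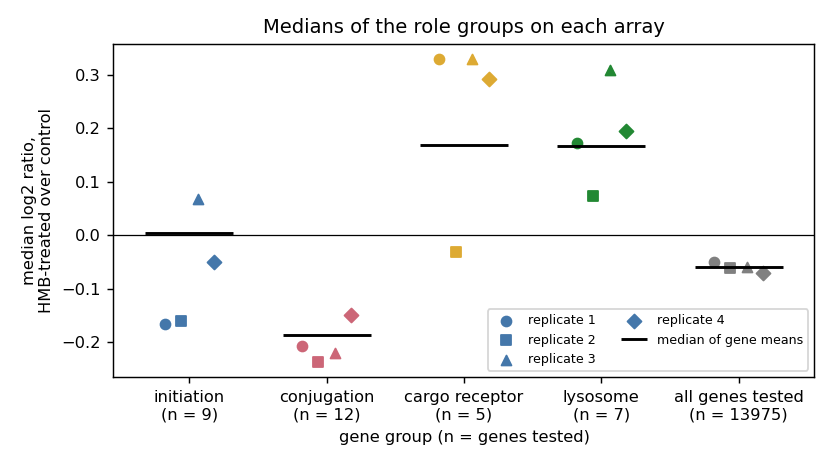
Median log2 ratio of HMB-treated over control (vertical axis) of each role group and of all 13975 genes tested, with a symbol for each array and a bar for the median of the gene means. The conjugation medians lie between −0.24 and −0.15 on the 4 arrays and the lysosome medians between 0.074 and 0.31, with no overlap.

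The genes that start the autophagosome gave 1 call. *WIPI2*, which binds the lipid made by the lipid kinase complex and recruits the conjugation machinery, had log2 ratios of −0.40, −0.37, −0.47 and −0.40 on the 4 arrays. All arrays showed the same fall, and the mean was −0.41 ± 0.039 (SD, n = 4; FC 1.33, adjusted p = 0.00255 in limma). All 5 *WIPI2* probes were called, with ratios between −0.43 and −0.39. They are no separate evidence, since they start 1 base apart and together cover 64 bases. The first 30 of the 60 bases of the outermost *WIPI2* probes are shown to make this overlap visible, with the shared bases in capitals, at chrUn:136256245-136256304 and chrUn:136256249-136256308 on the + strand of the EquCab1 build.
*WIPI2* first probe: atatGCTGCTATGAACTTTGACCCGAGTTG
*WIPI2* last probe: GCTGCTATGAACTTTGACCCGAGTTGcggg
The files give no exon or UTR for any probe. The *WIPI2* mean lay just beyond the FC threshold and inside it at −0.34 with normexp, −0.31 without background correction and −0.22 with median centering.

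Its relative *WIPI1* had a ratio of 0.25 ± 0.18 (SD, n = 4; adjusted p = 0.0519 in limma) over 4 probes. It was between 0.23 and 0.38 on 3 arrays and at 0.0042 on replicate 2, so all arrays lay above those of *WIPI2*. In the lipid kinase complex, the members did not move together. *PIK3R4*, the regulatory subunit, was next to the threshold, with ratios of −0.35, −0.34, −0.43 and −0.32 and a mean of −0.36 ± 0.047 (SD, n = 4; FC 1.28, adjusted p = 0.00442 in limma). The catalytic subunit *PIK3C3* had a mean of 0.14 and the subunit *BECN1* one of −0.15, and neither passed the test. *UVRAG*, which joins the complex in place of *ATG14*, had a mean of 0.17 with a range from 0.021 to 0.43 on the arrays. *ATG9A*, a membrane protein that supplies vesicles, had a mean of −0.17.

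The kinase complex itself was hardly measured. Only *ULK2* had tested probes among its kinases, and its 2 probes had mean ratios of −0.064 and 0.071. The gene mean of *ULK2* was 0.0033, with −0.18, −0.11, 0.18 and 0.12 on the arrays, and its 95% confidence interval, from −0.20 to 0.20, lay inside the FC threshold. *AMBRA1*, a regulator of *BECN1*, was above background in Cy5 on 3 of the 4 arrays and had a mean of 0.026 with a value of 0.44 on replicate 3 and values from −0.21 to −0.051 on the others. The probes of *ATG13* and *ATG14* were not well above background in either channel on any array. The *ULK1* probe was above background on 1 array in each channel, so no ratio is given for it.

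Most conjugation genes had small ratios below 0, and the mean over the 12 genes was −0.093. Of the 12, 1 was called lower and 1 higher, beside 16.4% and 12.5% of all genes. *ATG3*, the enzyme that transfers ATG8 proteins to the lipid, had a mean of −0.30 (adjusted p = 0.0134 in limma), with −0.30, −0.38, −0.35 and −0.16 on the arrays. *ATG5*, which forms the ligase with *ATG12*, had a mean of −0.23 (adjusted p = 0.0276 in limma). Both were below 0 on every array, but neither reached the FC threshold. *ATG12* had a mean of −0.14 and did not pass the test. *ATG7*, the enzyme that activates both *ATG12* and the ATG8 proteins, was close to 0 at 0.023, with a 95% confidence interval from −0.12 to 0.17. The probe of *ATG16L1*, the partner of *ATG5* and *ATG12*, was above background on 2 arrays in Cy3 and 3 in Cy5 and was not tested.

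The ATG4 proteases, which process the ATG8 proteins and release them again from the membrane, were split. *ATG4C* and *ATG4D* had means of −0.29 and −0.31, were below 0 on every array and had adjusted p-values of 0.0133 and 0.0129 in limma, yet stayed below the FC threshold. The 2 probes of *ATG4A* had means of 0.11 and −0.17, and the gene mean of −0.032 covered array values from −0.18 to 0.14. *ATG4B* had a mean of 0.31 ± 0.28 (SD, n = 4; adjusted p = 0.0657 in limma), with 0.12, 0.32, 0.078 and 0.70 on the arrays. The high value on replicate 4 came from 1 of its 5 probes, which read 2.99 there, whereas the other probes read between −0.015 and 0.29 on that array. The normalized HMB signal of that spot was 442 on replicate 4, against 138 to 142 on the other arrays, and its control signal there was 55.6. Without that probe, the *ATG4B* mean was 0.17 ± 0.10 (SD, n = 4). The 5 *ATG4B* probes again start 1 base apart, and the first 30 bases of the deviating probe and of the one farthest from it are given, with the shared bases in capitals, at chr6:27038588-27038647 and chr6:27038592-27038651 on the + strand of EquCab1.
*ATG4B* deviating probe: actgGAAAGATTCTTTGACTCAGAAGATGA
*ATG4B* last probe: GAAAGATTCTTTGACTCAGAAGATGAagac

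Within the ATG8 family, the proteins attached to the autophagosome membrane, *GABARAPL1* and *GABARAPL2* were called in opposite directions. *GABARAPL1* had log2 ratios of 1.52, 0.79, 0.26 and 0.78, all above 0 but spread widely. Its mean of 0.84 ± 0.52 (SD, n = 4; FC 1.79, adjusted p = 0.0120 in limma) was the highest of the set. It rests on 1 of 5 probes and on dim spots, with a mean normalized signal of 47.0 in the control and 80.7 with HMB. On replicate 4 that probe read 58.2 in the control and 100 with HMB. The 4 others read 5.9 to 11.3 and 20.6 to 27.7 there, and the cause was not tested. The 4 remaining probes, above background on 2 to 3 arrays, were not tested and had mean ratios between 0.86 and 1.14. They are shifted by 1 base each, and the first 30 bases of the outermost probes are shown for this reason, with shared bases in capitals, at chr6:37478556-37478615 and chr6:37478560-37478619 on the + strand of EquCab1.
*GABARAPL1* first probe, not tested: gaagACTATTTTCTGTATGTGGCCTACAGT
*GABARAPL1* last probe, tested: ACTATTTTCTGTATGTGGCCTACAGTgatg
The *GABARAPL1* call was lost in the methods' t-test (adjusted p = 0.104), with no filter on dim probes (adjusted p = 0.0784) and with normexp, where the mean was 0.31.

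*GABARAPL2* had ratios of −0.29, −0.68, −0.52 and −0.46, the lowest mean of the set at −0.49 ± 0.16 (SD, n = 4; FC 1.40, adjusted p = 0.00397 in limma). The arrays of *GABARAPL1* and *GABARAPL2* did not overlap. Of the 3 *GABARAPL2* probes, at chr3:24336712-24336771, chr3:24336742-24336801 and chr3:24336772-24336831 on the + strand of EquCab1, the means were −0.54, −0.54 and −0.38, and the last of these was just short of the FC threshold. With median centering the gene mean was −0.29 and was not called, where the median of all genes moved up by 0.12. The first 30 bases of each are printed because these probes carry the largest fall of the set.
*GABARAPL2* first probe: tattttgagtttttctttttgtgcactgtc
*GABARAPL2* second probe: ctcatggctatactctccagggaacttgtt
*GABARAPL2* last probe: cctctgggaatcatatttaatgaagatatt

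*MAP1LC3B*, the ATG8 protein most used as a marker of autophagosomes, was below 0 on every array, with −0.37, −0.46, −0.27 and −0.32. Its mean of −0.35 ± 0.079 (SD, n = 4; FC 1.28, adjusted p = 0.00593 in limma) did not reach the FC threshold, but 3 of its 5 probes were called. The probes lie in 3 separate stretches over 1652 bases of chromosome 3, and their ratio differed by position. The first probe, at chr3:34028224-34028283, had a mean of −0.068 and the next, at chr3:34028479-34028538, one of −0.31. The 3 overlapping probes between 34029774 and 34029875 had means of −0.47, −0.48 and −0.43. The first probe was higher than each of the last 3 on all 4 arrays, and on replicate 3 the gap was smallest. The first 30 bases of the probes, all on the + strand of EquCab1, are listed by position, because the call of the gene depends on which of them is read.
*MAP1LC3B* probe 1, not called: tgaaagtgagaaggatgaagatggattcct
*MAP1LC3B* probe 2, not called: gctgcaaatgagcacattcagctttggaaa
*MAP1LC3B* probe 3, called: agaaattctgctttttaaaaaacaaaaata
*MAP1LC3B* probe 4, called: aacaaaaataccatgctgagagggggactt
*MAP1LC3B* probe 5, called: ggggacttacatcccacattagtgggtgat
When the brightest probe stood for each gene, *MAP1LC3B* was called at −0.48 (adjusted p = 0.00413 in limma). Its relative *MAP1LC3A* had a mean of −0.14 over 1 probe and did not pass the test.

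**Figure D3:**
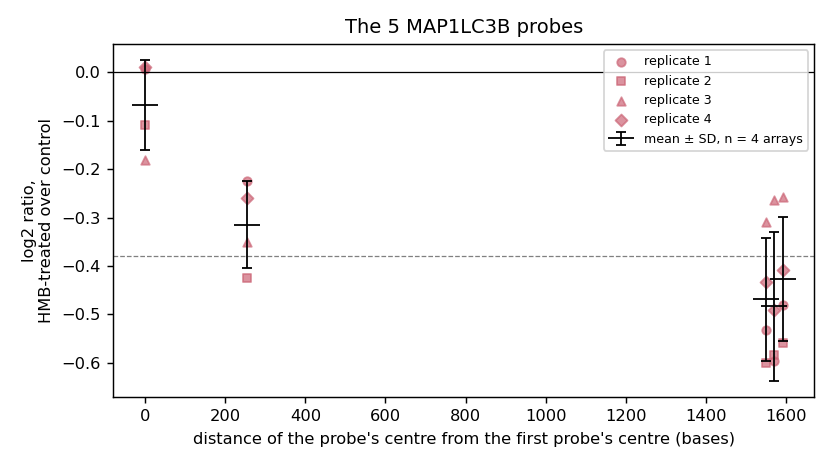
Log2 ratio of HMB-treated over control (vertical axis) of the 5 *MAP1LC3B* probes by the distance in bases from the centre of the first probe (horizontal axis), with a symbol for each array, the mean and SD over the 4 arrays, and a dashed line at an FC of 1.3. The mean is −0.068 at the first probe and between −0.48 and −0.43 at the last 3.

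Among the cargo receptors, *OPTN* was called and *CALCOCO2* lay at the threshold. *OPTN*, a receptor for ubiquitin-marked mitochondria and bacteria, had ratios of 0.33, 0.55, 0.58 and 0.40 and a mean of 0.47 ± 0.12 (SD, n = 4; FC 1.38, adjusted p = 0.00303 in limma). All 3 *OPTN* probes were called, with means between 0.44 and 0.49. They overlap at their ends, at chr29:20586361-20586420, chr29:20586402-20586461 and chr29:20586442-20590273 on the − strand of EquCab1. The last of these matches across a gap, so its span exceeds its 60 bases. The first 30 bases of each follow, as the sequences behind the only called receptor.
*OPTN* first probe: tgtggagaagttctgcccgacatagatacc
*OPTN* second probe: aacagcaacaacggaatattccaattcatt
*OPTN* last probe: taccttgttgaaagaggagctgaggataga

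*CALCOCO2*, which binds the same kinds of cargo, had ratios of 0.43, 0.31, 0.43 and 0.35. Its mean of 0.38 ± 0.060 (SD, n = 4; adjusted p = 0.00395 in limma) was just below the FC threshold. Of its 2 probes, the one with a mean of 0.39 was called and the one with 0.37 was not. *OPTN* and *CALCOCO2* were thus above 0 on every array by at least 0.31. *SQSTM1*, which gathers ubiquitin-marked protein aggregates, had a mean of 0.17 and was above 0 on 3 arrays, with −0.032 on replicate 2. *NBR1*, a related receptor, had a mean of −0.095 over 5 probes. *BNIP3L*, a receptor on the mitochondrial membrane, had a mean of 0.15 over 4 probes, with −0.18 on replicate 2 and values from 0.17 to 0.33 on the others.

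Of the lysosome genes, *CTSH* was called. Cathepsin H, a protease that acts mainly as an aminopeptidase, had log2 ratios of 0.49, 0.56, 0.81 and 0.60. The mean was 0.61 ± 0.14 (SD, n = 4; FC 1.53), and the adjusted p of 0.00119 in limma was the smallest of the set. All 3 *CTSH* probes were called, with means that rose from 0.54 through 0.61 to 0.69 in the order of their position. They are bright, with mean normalized control signals from 4463 to 6423. The probes lie at chr1:112743500-112743559, chr1:112743540-112743599 and chr1:112743580-112743639 on the + strand of EquCab1, and the first 30 bases of each are shown since they carry the rise with the smallest p of the set.
*CTSH* first probe: ttgtgccttttaagcatgatttttaactga
*CTSH* second probe: cgtggaccaagaatattctttccttcctga
*CTSH* last probe: ttcacatttggagagtactgtcttttctgt

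The other tested cathepsins of the set had smaller ratios in the same direction. Outside the set the cathepsins differed, with *CTSS* at 1.93, *CTSF* at 0.061 and *CTSA* at −0.36 (adjusted p = 0.00655 in limma, below the FC threshold). *CTSK*, a collagen-degrading protease, had values of 0.38, 0.19, 0.34 and 0.19 and a mean of 0.28 (adjusted p = 0.0174 in limma). It was above 0 on every array and below the FC threshold. *CTSB*, a general lysosomal protease with 7 probes between 0.031 and 0.22, had a mean of 0.17, and *CTSZ*, a carboxypeptidase, had one of 0.15. Neither passed the test. *LAMP2*, a membrane protein needed for fusion with autophagosomes, had a mean of 0.29 (adjusted p = 0.0400 in limma), with 0.59 on replicate 3 and between 0.15 and 0.24 on the others. *LAMP1*, the related membrane protein, was at −0.052 over 5 probes, and *HEXA*, which degrades gangliosides, at 0.019. The probes of *TFEB*, a transcription factor that controls lysosomal genes, and the 5 probes under the symbol *CTSD* were not well above background in either channel on any array.

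Under each of the scalings, the 5 called genes kept their side of the median of all genes, although not always their sign against 0. Scaling to the spike-in control probes of equal input moved the median of all genes by −0.62 on the log2 scale. *OPTN* was then at −0.092, *CTSH* at 0.070 and *GABARAPL1* at 0.12, none of them called, while *GABARAPL2* and *WIPI2* were at −1.02 and −0.96 and remained called. Relative to the median of all genes, *CTSH* was between 0.60 and 0.75 over all settings, *OPTN* between 0.47 and 0.58, *GABARAPL1* between 0.32 and 1.09, *WIPI2* between −0.39 and −0.28 and *GABARAPL2* between −0.49 and −0.35. Settings that altered only the test, read the same ratios or shifted each array by a constant could not change these values.

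**Figure D4:**
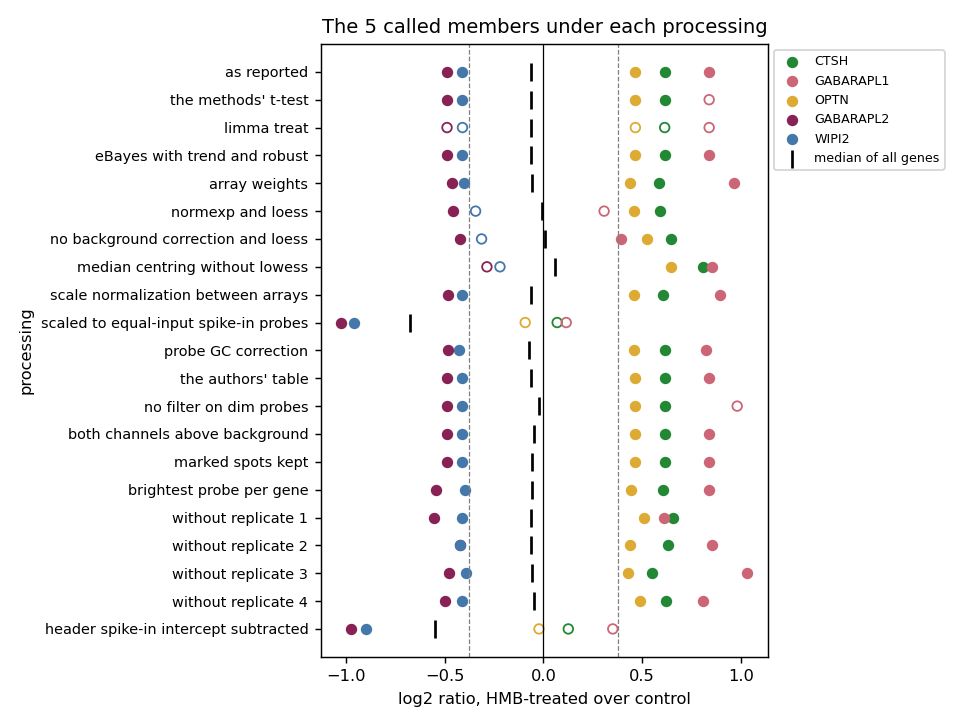
Log2 ratio of HMB-treated over control (horizontal axis) of the 5 called genes under each processing (vertical axis), with filled circles where the gene was called and open circles where it was not. Black ticks give the median of all genes and dashed lines an FC of 1.3. In every row *CTSH*, *OPTN* and *GABARAPL1* lie to the right of the tick, and *GABARAPL2* and *WIPI2* to the left.

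A wider list of 121 other autophagy and lysosome genes was read from the same fit. Of these, 99 had a probe, 87 were tested, and 21 (24.1%) were called, 8 higher and 13 lower with HMB, beside the 28.9% of all genes called. The median of the 87 was −0.090. It was −0.22 for 10 lysosomal membrane genes and −0.12 for 13 proton pump genes. For 28 hydrolases and activators it was −0.071, and for 5 enzyme delivery genes −0.40. These medians lie below the 0.17 of the 7 lysosome genes of the set. The 9 fusion genes had a median of 0.093. *CTSS*, a cathepsin known for processing antigens in immune cells, had the largest ratio, with 1.75, 2.18, 2.13 and 1.66 on the arrays and a mean of 1.93 ± 0.26 (SD, n = 4; FC 3.82, adjusted p = 5.1e-05 in limma). It was called under all 20 alternative settings, among them the authors' table, which holds the same ratios and could not differ. Of 6 listed leukocyte markers, 4 were on the array, and 3 of these were not above background. The fourth, *CD14*, was detected and not called. The summed signal of the list was between 3626 and 4358 in the control and between 4004 and 6016 with HMB. The cell type behind the *CTSS* ratio was not tested.

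The autophagy genes of the list went in both directions. *TBK1*, the kinase that phosphorylates *OPTN* and other receptors, was higher at 0.67 ± 0.11 (SD, n = 4; adjusted p = 0.000665 in limma). In the selective autophagy class, 3 of 11 tested genes were called higher and 1 lower, beside 12.5% and 16.4% of all genes. *WDR45B*, a relative of the WIPI proteins, was lower at −0.66 ± 0.23 (SD, n = 4), as was *TMEM41B*, a lipid scramblase needed for the growing membrane, at −0.58 ± 0.10 (SD, n = 4). The *WDR45B* probe was above background on all arrays in the control but on 3 with HMB, and its ratio was −0.11 with normexp and −0.21 without background correction, not called in either. *TMEM41B* was at −0.31 with normexp and not called. *VAMP8*, which takes part in the fusion of autophagosomes and lysosomes, was higher at 0.52 ± 0.19 (SD, n = 4). It was the only call among 9 tested fusion genes, beside 28.9% of all genes called.

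Of 5 tested genes that deliver enzymes to the lysosome, 3 were lower and 0 were higher, beside 16.4% of all genes called lower. *IGF2R*, the large mannose 6-phosphate receptor, was at −0.61 ± 0.21 (SD, n = 4), *SORT1*, a sorting receptor, at −0.56 ± 0.11 and *GNPTAB*, which makes the mannose 6-phosphate tag, at −0.40 ± 0.077. The *IGF2R* probe was above background on all arrays in the control and on 3 with HMB. With normexp and without background correction, *IGF2R* was at −0.19 and −0.24 and *SORT1* at −0.32 and −0.38, and neither was called. Of 28 tested hydrolases and activators, 3 were called higher and 3 lower, beside 12.5% and 16.4% of all genes. *NAGLU*, a heparan sulfate-degrading enzyme, was higher at 0.51 ± 0.30 (SD, n = 4), with values from 0.21 to 0.81. Its call was lost without replicate 3, at 0.41, and without replicate 4, at 0.44, as well as with normexp (0.21), without background correction (0.35), in the methods' t-test (adjusted p = 0.0994) and with no filter on dim probes (adjusted p = 0.0826). *PLA2G15*, a lysosomal phospholipase, was not well above background on any array with HMB, so its fall has only a bound. Set against the lowest HMB signal well above background on each array, or its own signal where higher, it was at least 1.33-fold lower. The bound was not tested, and the adjusted p of 0.0102 in limma is that of the measured mean of −0.56. *PLA2G15* entered the test through the control channel alone. Its call was lost with normexp (−0.12), without background correction (−0.13), in the methods' t-test (adjusted p = 0.0836) and with no filter on dim probes (adjusted p = 0.0668). Of 10 tested lysosomal membrane genes, 3 were called lower, beside 16.4% of all genes. Among them was the sialic acid exporter *SLC17A5* at −0.47 ± 0.080 (SD, n = 4). *SLC17A5* was at −0.15 with normexp, −0.23 without background correction and −0.31 with the brightest probe, and was not called in these. The other calls, *NPC1* (−0.38) and *TMEM192* (−0.39), lay just beyond the FC threshold, with 1 called probe each. Of 3 tested *NPC1* probes, 1 was above background with HMB on 1 array only. Of 2 tested *TMEM192* probes, 1 was above background with HMB on 3 arrays. These dim probes entered the test through the control channel. Of 13 tested subunits and accessory proteins of the proton pump, 1 was called, *ATP6AP2* at −0.44 ± 0.20 (SD, n = 4), beside 28.9% of all genes. The ratio was below 0 for 10 of the 13, beside 57.3% of all genes. An adjusted p of 0.05 or less in limma was reached by 6, all 6 lower, beside 46.3% of all genes in either direction. Neither *MITF* nor *TFE3*, relatives of *TFEB*, was called.

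**Figure D5:**
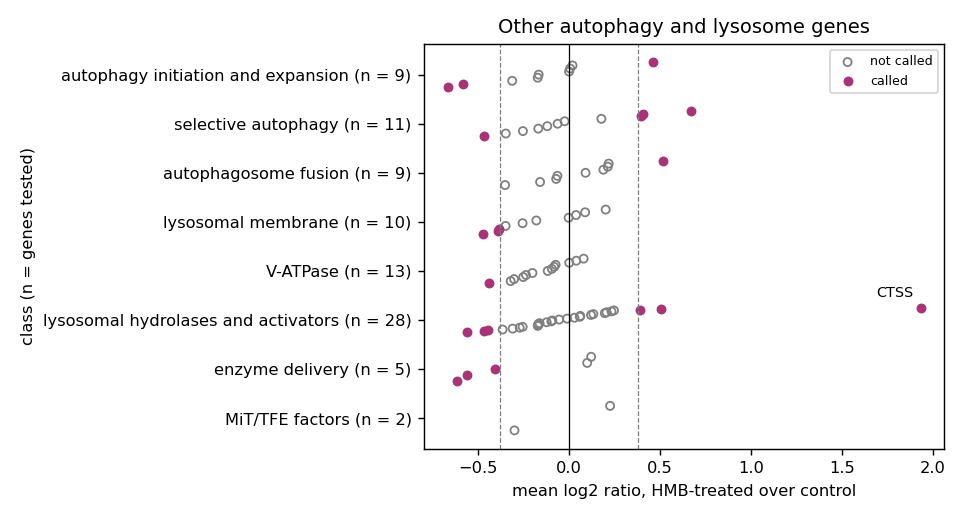
Mean log2 ratio of HMB-treated over control (horizontal axis) of 87 other autophagy and lysosome genes by class (vertical axis), with filled circles for called genes, open circles for the rest and dashed lines at an FC of 1.3. *CTSS* stands apart at 1.93, and the 3 called enzyme delivery genes all lie below 0.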

How the data were processed

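For the 4 Agilent horse arrays, scanner files and a table of normalized values were deposited. For the intensity values, the deposited files hold the brightness of each spot in Cy3 and Cy5, with the background subtracted and the channels normalized by the authors' linear and lowess steps within the array. The log10 ratio of Cy5 over Cy3 was written by Feature Extraction, version 10.10.1.1 in the file headers, and the authors' table holds the same ratios. The log2 ratios were calculated here from these deposited log10 values. A probe was tested if at least 1 channel was well above background on all 4 arrays and an unmarked ratio was present on at least 3. Between 13 and 35 spots per array were marked as uneven or outlying and left out. Spots of a probe and tested probes of a gene were averaged, fitted in R 4.3.3 with limma 3.58.1 (lmFit, eBayes) against 0, and corrected over all 13975 genes or 24669 probes. The script was tested on simulated data.

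Array values were named for each called gene, for genes whose probes differed in call or sign and for the 2 uncalled genes nearest to the thresholds, and for further members where the arrays or probes differed or where the ratio had the same sign on every array. From the wider list, the 10 largest called genes with the same sign on all arrays were named. *ATP6AP2*, *GNPTAB*, *CTSA*, *CTSF*, *NPC1* and *TMEM192* were added after their values were seen. The set, the lists and the alternatives were chosen with earlier results of these data known, so the calls are no independent evidence. The number of arrays limits the precision. Coordinates and probe sequences are those of the files (EquCab1), printed as the first 30 bases in the orientation of the file. Other assays of the study were not analysed here.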

Additional observations from a re-analysis of the deposited data

Results flagged for a closer look

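A value on replicate 4 stood far from the 3 others in 2 cases, out of 43 gene means and 5 *ATG4B* probes examined. The log2 ratio of *PLA2G15* was −0.11 on replicate 4, whereas it was −0.67, −0.75 and −0.72 on replicates 1, 2 and 3, with the HMB channel not well above background on any array. The ratio of the deviating *ATG4B* probe was 2.99 on replicate 4, against 0.057, 0.37 and 0.046 on the others. Chance alone marks about 1 in 20 groups of this kind where the groups are not picked by their values. Of the 80 tested probes of the set, only those of *ATG4B* were examined. The cause was not tested.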

How the results depend on the processing

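Direction and call of most results held under moderation with a trend, array weights, scaling between arrays, GC correction, the filter on both channels and the use of marked spots. The authors' table holds the same ratios, so its results could not differ. With treat, which tests for an FC above 1.3, 0 members, 0 higher and 0 lower, 1 probe and 2 genes of the wider list were called, beside 11% of all genes, and 2 members had an unadjusted p below 0.05. The methods' t-test called 4 members, beside 19.7% of all genes, and 13 genes of the wider list. With normexp, 3 members (1 lower), 11 probes and 6 wider genes were called, beside 12.9% of all genes, and the conjugation median was −0.098. Without background correction, 5 members were called, 1 of them lower, beside 17.1% of all genes, and 7 wider genes, with a conjugation median of −0.094. With median centering, 8 members were called, beside 31.1% of all genes, 8 higher (18.9% of all genes) and 0 lower (6 lower at an unadjusted p below 0.05 in limma), with medians of −0.037 for conjugation and 0.38 for lysosome. Scaled to the spike-in probes, 24 members were called, 0 higher (also 0 at an unadjusted p below 0.05 in limma) and 24 lower, beside 82.1% of all genes, with 55 probes and 75 wider genes. The medians were −0.74 (initiation), −0.77 (conjugation), −0.40 (cargo receptors) and −0.36 (lysosome), and *OPTN* (−0.092), *ULK2* (−0.64), *VAMP8* (−0.042), *NAGLU* (−0.16) and the uncalled *CALCOCO2* (−0.22) turned in sign. Subtracting the spike-in intercept of the file headers (0.37 to 0.57), chosen after seeing the data, gave 19 called members, 0 higher (0 at an unadjusted p below 0.05 in limma) and 19 lower, 47 probes and 67 wider genes, beside 73.9% of all genes. The medians were −0.48, −0.67, −0.32 and −0.32, with *OPTN* at −0.022 and *ULK2* at −0.48. Without a filter on dim probes, 4 members were called lower, beside 10.3% of all genes, with the dim *ATG14* and *TFEB* added. The initiation and conjugation medians were then −0.16 and −0.14. For these differences, the cause was not tested. Of all called genes, 43.2% were higher as reported, 53.8% with treat, 57.1% with normexp, 62.1% without background correction, 60.7% with median centering and 4.41% and 6.3% with the spike-in scalings. The median of all genes moved by −0.49 with the header intercept.

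With each replicate left out in turn, 6 members, 16 to 22 probes and 17 to 20 wider genes were called. This was 17.6% to 18.2% of the members tested, beside 26.7% to 29.3% of all genes. The medians ran from −0.11 (without replicate 3) to 0.057 for initiation and from −0.22 to −0.15 for conjugation. They ran from 0.14 to 0.26 for cargo receptors and from 0.12 to 0.20 for lysosome genes. *ATG16L1* became testable and was added without replicate 1 (0.45, adjusted p = 0.0464 in limma), *MAP1LC3B* without replicate 3 (−0.38), *CALCOCO2* without replicate 2 (0.40) or 4 (0.39). No separate paired analysis was made. Each array carried both groups, so the test of the ratio against 0 is already paired by array.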

Other observations

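The member symbols *BNIP3* and *CTSD* had no tested probe, but probes under other names carried their gene descriptions in the files. Descriptions were searched for these symbols only, after the values of the set were seen, and the probes are no members. The probe described as *BNIP3*, a mitophagy receptor that is induced under low oxygen, lay at chr1:1217052-1217111 of EquCab1 and had log2 ratios of 0.86, 0.99, 1.11 and 0.96, all close to each other. Its mean was 0.98 ± 0.10 (SD, n = 4; adjusted p = 1.32e-04 in limma), above every tested cargo receptor of the set. The probe described as *CTSD*, the aspartic protease of the lysosome, had ratios of 0.022, −0.092, 0.19 and −0.23 with a mean of −0.028 ± 0.18 (SD, n = 4; adjusted p = 0.801 in limma).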
